A study of Homo sapiens with 6 samples.

Results

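Small nucleolar RNAs (snoRNAs) and their relatives of the Cajal body (scaRNAs) were examined on arrays of RNA pulled down with the double-stranded RNA-binding protein Staufen1 (Stau1). The targets were those whose gene symbol began with SNORD, SNORA or SCARNA, 59 of the 37879 targets in the table. They held 47 box C/D snoRNAs, 10 box H/ACA snoRNAs and 2 scaRNAs, and the table's own definitions named the same classes with the same counts. All 6 samples came from HEK293T cells, a human embryonic kidney line, treated with Nocodazole at 50 ng/ml for 15 h and collected in prometaphase. In the 3 control IPs the cells carried empty vector, and in the 3 Stau1 IPs they carried plasmids coding for Stau155-FLAG, the 55-kDa isoform with a FLAG tag. Both groups were immunoprecipitated with the same anti-FLAG antibody, so the control IP measured the RNA that came down without a tagged protein. Stau155-FLAG was expressed from a transfected plasmid beside the cells' own Stau1. The labels did not say whether the replicates came from separate cultures, so the p-values measured only the spread between these samples, which may be technical. RNA of the whole extracts was not analysed here, so fewer cells or less of an RNA per cell could not be told apart from less RNA pulled down.

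Box C/D snoRNAs guide the methylation of ribose in ribosomal RNA, and box H/ACA snoRNAs guide the conversion of uridine to pseudouridine. Both work in the nucleolus as part of particles with a fixed set of core proteins, whereas scaRNAs guide the same modifications on spliceosomal RNAs in the Cajal body. Most human snoRNAs are cut out of the introns of other genes, many of them genes for ribosomal proteins, and the mature RNAs have no poly(A) tail. The labelling kit used for these arrays primes from poly(A) with oligo(dT), so which form of an RNA gave the signal (the mature snoRNA, an unspliced or retained intron, or another transcript) was not tested. Several members are near-identical copies (SNORD14A and SNORD14B, for example), and signal of one may have come partly from another. Probe sequences and the sequences of these RNAs were not used here.

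Most markers of the labelled cells were detected. Of 5 markers of HEK293T cells 4 were detected on all 6 arrays, and the kidney transcription factor PAX2 on 1. The 4 mitotic markers were detected on all 6, and 5 markers of blood, liver and muscle cells on none. Detection alone does not identify the line or the arrest. The target of STAU1 itself gave signals of 2499, 3246 and 2758 on the control arrays and 2845, 1857 and 3130 on the Stau1 arrays. It did not separate the groups, with control array 2 the highest of the 6 and Stau1 array 2 the lowest. Whether that target reads the plasmid's transcript was not known. Over the 9884 targets detected on every array, the arrays numbered 2 went with their labels less clearly than the rest. Control array 2 (LDS205) correlated at 0.983 and 0.984 with Stau1 arrays 1 and 3, and hardly lower, at 0.977 and 0.982, with control arrays 1 and 3. Stau1 array 2 (LDS208) correlated at 0.962, 0.954 and 0.977 with control arrays 1, 2 and 3, but at 0.940 and 0.943 with the other Stau1 arrays. Stau1 arrays 1 and 3 correlated at 0.996. The labels were kept, and the arrays numbered 2 are given singly below.

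Detection was the first question, since a snoRNA without a poly(A) tail may give little signal. A target counted as detected where its deposited detection p, which rates the signal against negative control probes, was below 0.05. This p did not strictly follow the signal. STAU1, for example, was detected on 2 control arrays and 3 Stau1 arrays although its lowest signal was 1857. How many probes the values of a target combine was not known. With a detection p below 0.05, 32 of the 59 small RNAs (54.2%) were detected on at least 1 array, beside 40.5% of all targets. All 6 arrays detected 20 of them (33.9%, beside 26.1% of all targets), and 27 (45.8%, beside 59.5%) were detected on none. The control arrays detected 24, 24 and 28, and the Stau1 arrays 31, 24 and 30. Control array 2 therefore counted like control array 1, and Stau1 array 2 counted like those 2 control arrays and not like the other Stau1 arrays. Over all targets the share detected ran from 30.7% on Stau1 array 2 to 34.5% on control array 2, with 33.6% and 33.4% on Stau1 arrays 1 and 3. The 12 RNAs detected on some arrays but not all accounted for the difference, with 4, 4 and 8 of them detected on the control arrays and 11, 4 and 10 on the Stau1 arrays.

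Most of these RNAs lay close to background. The median of the 59 signals ran from 100 to 118 over the 6 arrays, where the estimated background level was 77.6 to 89.6. That level is a median over ordinary targets with a detection p near the middle of its range, not a reading of negative control probes. Single signals spanned 61.3 to 2694. The signal of a target was the mean of 20 to 70 beads (median 41), with a median bead standard error of 4.50% of the signal. The plot of deposited signals shows the detected targets array by array. Signals of different targets were not compared with each other, since each depends on its own probe or probes.

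**Figure D1:**
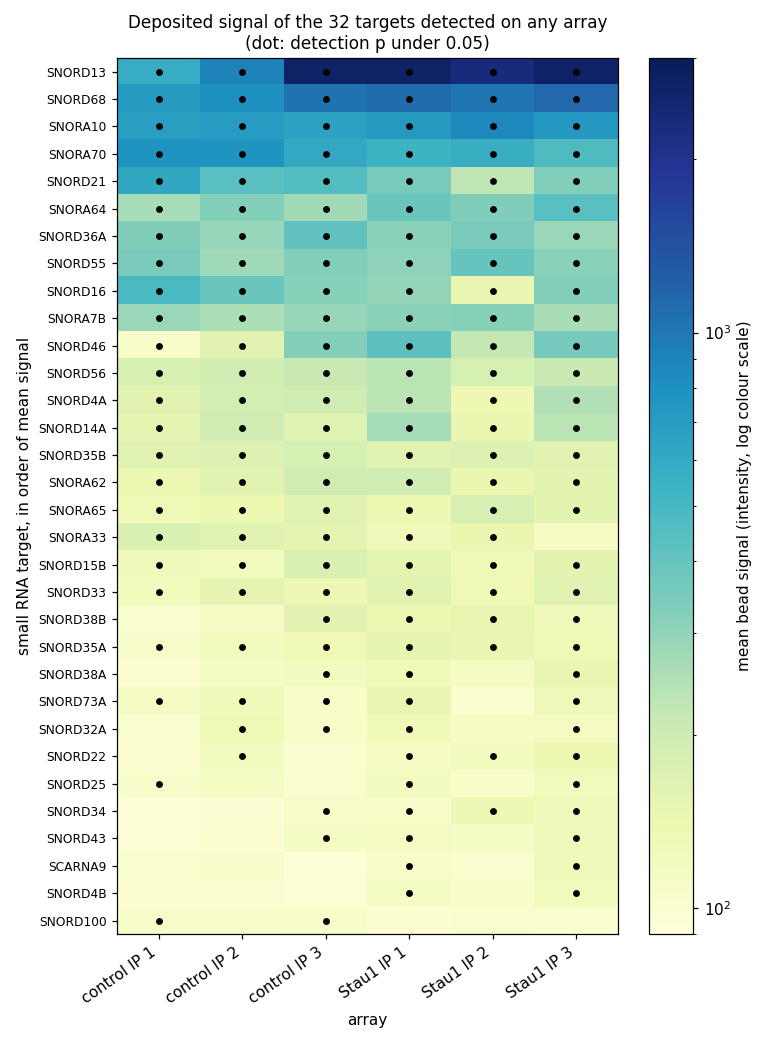
Deposited mean bead signal (colour, log scale) of the 32 small RNAs detected on at least 1 array, with the 6 arrays as columns and a dot where the detection p was below 0.05. SNORD13 read 584 and 900 on control arrays 1 and 2 and between 2293 and 2694 on the other 4, and dots are missing most often in the lower rows, for 8 RNAs each on control arrays 1 and 2 and Stau1 array 2.

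The share detected differed between the classes and hosts. Of the 10 box H/ACA RNAs 7 were detected on at least 1 array and 6 on all 6. Of the 47 box C/D RNAs 24 were detected on at least 1 array and 14 on all 6. The box C/D RNAs also made most of the difference between arrays, with 17, 17 and 21 detected on the control arrays and 23, 17 and 23 on the Stau1 arrays. The box H/ACA count was 7 on every array but Stau1 array 3, which had 6.

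For the host, each RNA was placed in the shortest gene that spans it in the RefSeq table of assembly GRCh38.p14, used for names only. All 59 symbols were found there, and all but SNORD13 lay in 29 host genes. Ribosomal protein genes held 37 of the RNAs in 18 host genes, and 26 of those 37 were detected on at least 1 array and 17 on all 6. SNHG1, a long RNA gene known for its intronic snoRNAs, held 7, of which SNORD22 and SNORD25 were detected on some arrays and none on all. The imprinted cluster on chromosome 15, whose loss is linked to Prader-Willi syndrome, held 6 (SNORD64, SNORD107, SNORD108, SNORD109B, SNORD116-2 and SNORD116-4), with none detected on any array. Of 8 RNAs in other genes 3 were detected: SNORD56 in NOP56 and SNORA7B in RPL32P3 on all 6 arrays, and SCARNA9 in CEP295 on 2. SNORD13, which no gene spans, was detected on all 6. These groups were small and partly overlap with class (7 of the 10 box H/ACA RNAs lie in ribosomal protein genes), and no test was made of the difference between them.

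**Figure D2:**
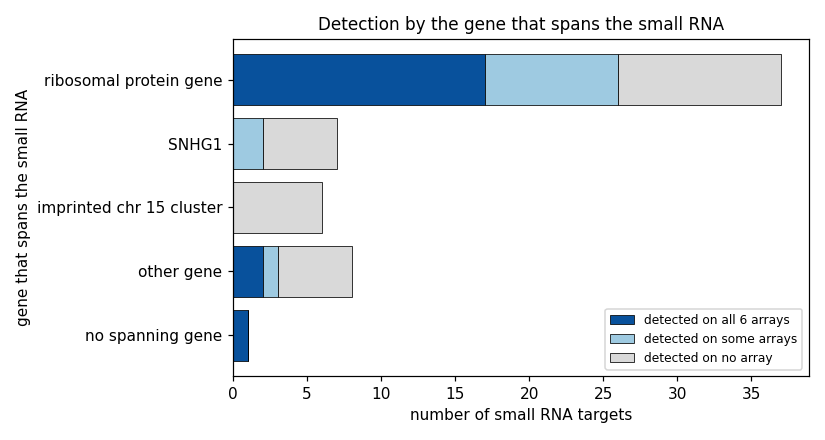
Number of small RNAs (horizontal axis) in each kind of host gene (bars), divided by whether they were detected on all 6 arrays, on some or on none. Of 37 in ribosomal protein genes 17 were detected on all 6 arrays, and none of the 6 in the imprinted cluster on chromosome 15 was detected.

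Copies of one snoRNA family differed in detection in several cases. SNORD14A, a copy of U14 that takes part in the processing of small-subunit rRNA, was detected on all 6 arrays, while SNORD14B from another intron of RPS13 was detected on none, with a highest signal of 113. SNORD15B and SNORD15A of RPS3 split the same way, as did SNORD36A and SNORD36C of RPL7A. SNORD4A of RPL23A was detected on all 6 arrays and SNORD4B on 2. SNORD35A and SNORD35B were both detected on all 6, whereas SNORD42A and SNORD42B of RPL23A were both detected on none. How far the probes of such pairs cross-hybridise was not tested.

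The 27 undetected RNAs had signals between 61.3 and 113. Their log2 differences between the groups ran from -0.08 to 0.06 with a median of 0.00, which at background level says nothing about binding. No level can be given for them in either group.

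The comparison of Stau1 IP with control IP asked which RNAs came down with tagged Stau1. Differences are given as log2 fold changes, Stau1 IP minus control IP, after the variance-stabilizing transformation and robust spline normalization that the methods name. On this scale changes of dim targets are understated. None of the 59 passed the methods' threshold of more than 2.5-fold together with an unadjusted p under 0.05, here by limma. Of all targets 1 passed it upwards (0.00264%) and none downwards (0%). The paper reported a far longer list of transcripts enriched at that fold, which this rebuilt comparison did not recover. Why it did not was not tested, and the lack of calls was not particular to these RNAs. None passed limma's test after Benjamini-Hochberg adjustment over all targets (lowest adjusted p 0.120, for SNORA64), where 1 of all targets passed (0.00264%). At an unadjusted p under 0.05, limma called 3 of 59 (5.08%), beside 8.86% of all targets, a share that was not above the background. SNORA64 and SNORD22 were higher in the Stau1 IP (3.39% of the RNAs, beside 3.85% of all targets) and SNORD21 was lower (1.69%, beside 5.01%). A t-test as in the methods called 5 at that level, beside 7.76% of all targets, and none after adjustment. Without both arrays numbered 2, 13 of 59 had an unadjusted p under 0.05, beside 17.4% of all targets, and SNORA64 passed after adjustment (adjusted p = 0.0313, limma), as did 5.33% of all targets in that setting.

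Of the 59 RNAs 39 had a log2 fold change above 0 (66.1%, beside 52.7% of all targets). Their median was 0.03, beside 0.00 for all targets, and it was -0.00080 without both arrays numbered 2. For the 29 detected on at least 3 arrays the median was 0.08, with 22 above 0, beside a median of 0.00 and 50.2% above 0 over all targets so detected. Some of the 29, such as SNORD22, SNORD34 and SNORD38B, were detected on more Stau1 arrays than control arrays. The lowest was -0.63 for SNORD21 and the highest 1.05 for SNORD13. The 3 arrays of one group lay all above or all below the other 3 for 6 of the 59 (10.2%, beside 14.4% of all targets): SNORA64 and SNORD22 higher (3.39%, beside 6.7%), and SNORD16, SNORD21, SNORD26 and SNORD42B lower (6.78%, beside 7.67%). SNORD26 and SNORD42B were detected on no array. Among the 20 detected on every array the groups were apart for 3 (15%, beside 23% of the 9884 targets so detected) and the unadjusted p was under 0.05 for 2 (10%, beside 22%). Without both arrays numbered 2 the groups were apart for 30 of 59, beside 46.3% of all targets.

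**Figure D3:**
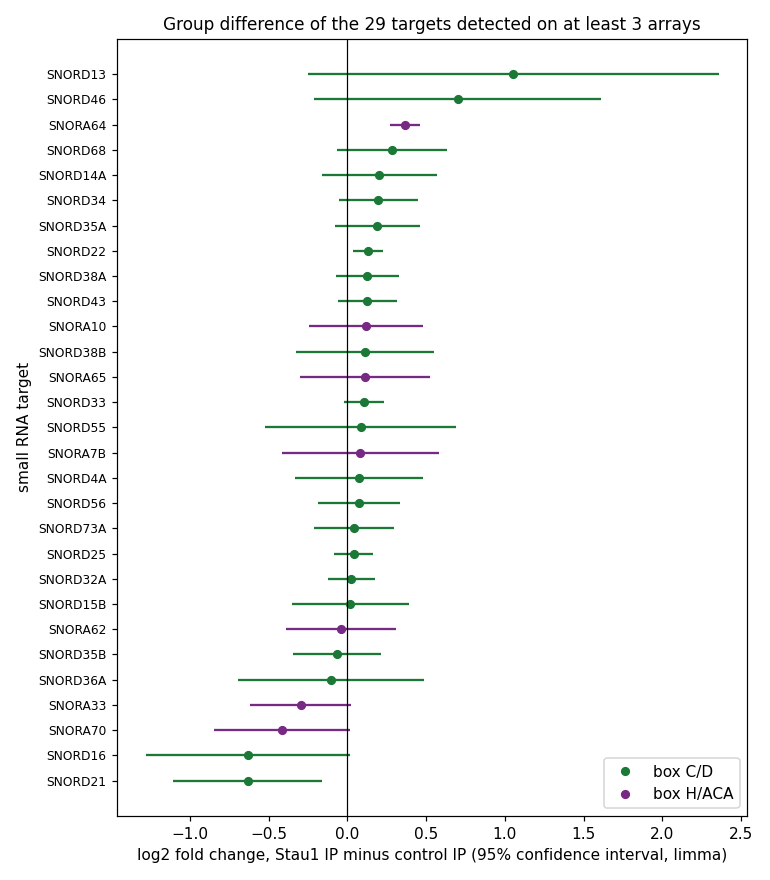
Log2 fold change, Stau1 IP minus control IP (points, horizontal axis), with its 95% confidence interval from limma (lines) for the 29 small RNAs detected on at least 3 arrays, coloured by class. The interval excludes 0 for SNORA64, SNORD22 and SNORD21, none of which passed adjustment over all targets, and is widest for SNORD13, from -0.25 to 2.36.

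SNORA64 (U64) is a box H/ACA RNA that guides pseudouridylation of ribosomal RNA from an intron of RPS2. It gave signals of 262, 326 and 272 on the control arrays and 390, 334 and 440 on the Stau1 arrays. All 3 Stau1 arrays were higher, although Stau1 array 2 exceeded control array 2 by little before normalization. After normalization the control arrays lay at 8.63, 8.59 and 8.62 and the Stau1 arrays at 8.92, 9.05 and 8.97. Both arrays numbered 2 sat with their own group here. The log2 fold change was 0.36 (SE 0.038, 95% confidence interval 0.27 to 0.46, adjusted p = 0.120 by limma), and the exact two-sided permutation p was 0.1, the smallest that 3 against 3 arrays can give. SNORA10, from another intron of the same gene, gave 688, 704 and 660 on the control arrays and 724, 867 and 740 on the Stau1 arrays. Its raw signals did not overlap, but its normalized levels did (log2 fold change 0.12, 95% confidence interval -0.24 to 0.48), and its sign turned without both arrays numbered 2 (-0.09). The host mRNA RPS2 had a log2 fold change of 0.32 (SE 0.209, adjusted p = 0.780 by limma).

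SNORD13 (U13) is transcribed from its own gene and is known to guide the acetylation of a cytidine in small-subunit rRNA instead of a methylation. Its signals with bead standard errors were 584 ± 17.2, 900 ± 21.6 and 2691 ± 85.5 on the control arrays and 2694 ± 55.5, 2293 ± 54.2 and 2679 ± 69.9 on the Stau1 arrays. Control arrays 1 and 2 were far below the other 4, while control array 3 read as high as the Stau1 arrays, so the groups overlapped. The spread among the control arrays was many times the bead error. The log2 fold change of 1.05 had an SE of 0.521 and a 95% confidence interval of -0.25 to 2.36 (adjusted p = 0.673 by limma), and the exact permutation p was 0.4. Without control array 3 the log2 fold change was 1.65, past the methods' threshold, and without control array 1 it was 0.68.

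SNORD46 and SNORD68, box C/D guides of rRNA methylation, had the same arrays at the bottom. SNORD46 gave 109, 159 and 326 on the control arrays and 424, 220 and 355 on the Stau1 arrays. Control array 3 lay within the range of the Stau1 arrays, and the log2 fold change was 0.70 (SE 0.364, adjusted p = 0.697 by limma). SNORD68 gave 724, 807 and 1041 on the control arrays and 1107, 1017 and 1137 on the Stau1 arrays. Again only control array 3 overlapped the Stau1 arrays, and the log2 fold change was 0.28 (SE 0.139, adjusted p = 0.668 by limma).

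Control arrays 1 and 2 were the lowest 2 of the 6 normalized levels for 6 of the 20 RNAs detected on every array (30%: SNORD13, SNORD15B, SNORD33, SNORD35A, SNORD46 and SNORD68), beside 11.1% of the 9884 targets detected on every array. All 6 are box C/D RNAs, as are 14 of the 20. They were the highest 2 for 1 of the 20 (5%, SNORA70), beside 11.5%. This order of the arrays was noticed in the values and is a description only. It does not follow the labelled groups, and it is not the split with the arrays numbered 2 exchanged either, since control array 3 went with all 3 Stau1 arrays. What control arrays 1 and 2 share was not tested.

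**Figure D4:**
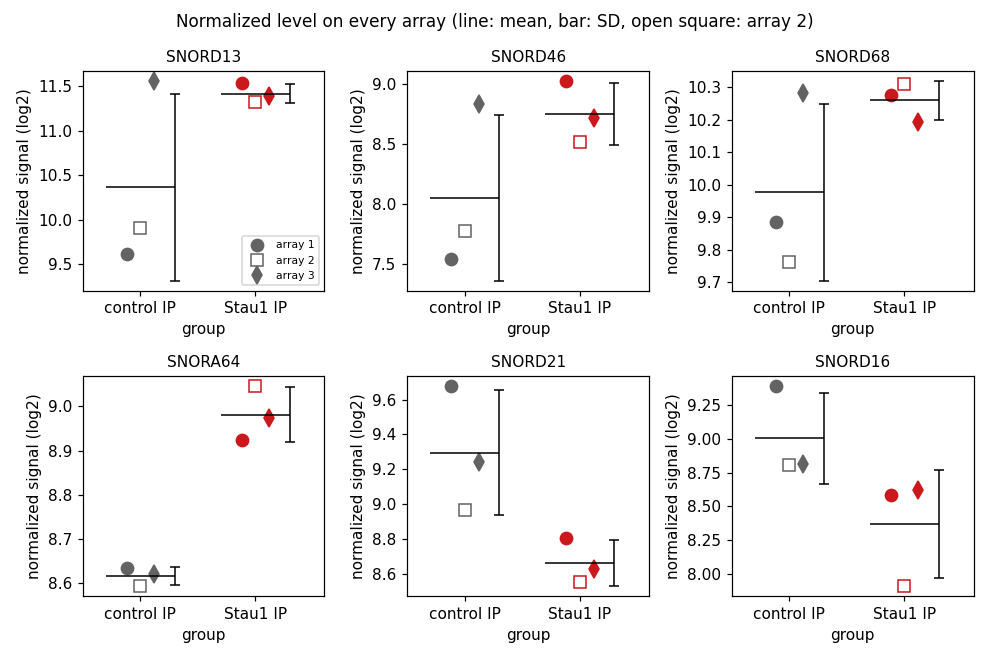
Normalized log2 signal (vertical axes, each with its own range) of 6 small RNAs on every array, with the 3 arrays of each group as separate markers (open square for array 2), the group mean as a line and the SD as a bar. In SNORD13, SNORD46 and SNORD68 control array 3 lies with the Stau1 arrays, whereas in SNORA64, SNORD21 and SNORD16 the groups do not overlap.

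On the lower side, SNORD21 is a box C/D RNA in an intron of RPL5. It gave 614, 440 and 455 on the control arrays and 354, 226 and 329 on the Stau1 arrays. Every Stau1 array was below every control array, with Stau1 array 2 the lowest and control array 1 the highest. The log2 fold change was -0.63 (SE 0.189, 95% confidence interval -1.11 to -0.16), with an unadjusted p of 0.018 and an adjusted p of 0.414 by limma, and the exact permutation p was 0.1. SNORD16 (U16), a box C/D RNA in an intron of RPL4, gave 487, 386 and 320 on the control arrays and 293, 146 and 328 on the Stau1 arrays. Stau1 array 2 was far below the rest, and control array 3 and Stau1 array 3 were apart only after normalization (8.82 and 8.62). The log2 fold change was -0.63 (SE 0.259, adjusted p = 0.578 by limma), and it was -0.40 without Stau1 array 2. SNORA70 (U70), a box H/ACA guide in an intron of RPL10, gave 769, 767 and 611 on the control arrays and 539, 567 and 469 on the Stau1 arrays. Its raw signals did not overlap, but after normalization Stau1 array 2 (9.64) reached the control arrays (9.96, 9.69 and 9.60), and the log2 fold change was -0.41 (SE 0.173, adjusted p = 0.590 by limma). SNORA33 of RPS12 gave 175, 162 and 154 on the control arrays and 126, 142 and 114 on the Stau1 arrays. It was detected on all but Stau1 array 3, and its log2 fold change was -0.30 (SE 0.127, adjusted p = 0.603 by limma).

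The remaining RNAs detected on all 6 arrays had log2 fold changes between -0.10 (SNORD36A) and 0.20 (SNORD14A), each with a 95% confidence interval that included 0. SNORD14A gave 151, 195 and 167 on the control arrays and 265, 145 and 234 on the Stau1 arrays. Stau1 arrays 1 and 3 were the highest and Stau1 array 2 the lowest, so the Stau1 arrays spanned all the controls. SNORD4A, a methylation guide from RPL23A, had the same order, with 158, 187 and 198 on the control arrays and 234, 137 and 247 on the Stau1 arrays. SNORD55, also a methylation guide, gave 345, 273 and 329 on the control arrays and 306, 400 and 313 on the Stau1 arrays. There Stau1 array 2 was the highest and control array 2 the lowest. SNORD36A gave 335, 289 and 416 on the control arrays and 313, 345 and 285 on the Stau1 arrays. SNORA7B gave 286, 255 and 290 on the control arrays and 310, 318 and 260 on the Stau1 arrays. For SNORD55, SNORD36A, SNORA7B and SNORD35B, control array 2 with Stau1 arrays 1 and 3 made the lowest 3 normalized levels, 4 of 20 (20%), beside 17.8% of the 9884 targets. None of the 20 had those 3 arrays as the highest, beside 17.0%.

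The groups also overlapped for the other 7 RNAs detected on all arrays. SNORA62 (E2), known from the processing of small-subunit rRNA, gave 140, 160 and 196 on the control arrays and 189, 143 and 156 on the Stau1 arrays. SNORA65, an H/ACA guide from RPL12, gave 132, 139 and 161 on the control arrays and 136, 180.6 and 156 on the Stau1 arrays. SNORD56, which lies in the gene for the box C/D core protein NOP56, gave 177, 190 and 211 on the control arrays and 232, 182 and 206 on the Stau1 arrays. None of these sets of arrays separated by label. SNORD33 and SNORD35A, intronic RNAs of RPL13A known for a role in the response to lipid stress, gave 120, 152 and 134 and 105, 122 and 132 on the control arrays. Their Stau1 arrays read 161, 133 and 163 for SNORD33 and 151, 146 and 132 for SNORD35A. Control array 1 was the lowest for both. SNORD35B gave 159 to 183 over all 6 arrays and SNORD15B 123 to 175, ranges in which the groups were mixed.

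RPL13A held 4 of the RNAs, all of them detected on at least 4 arrays. SNORD34 had a log2 fold change of 0.20, SNORD35A 0.19, SNORD33 0.10 and SNORD32A 0.03. All 4 were above 0, and the 95% confidence interval of each included 0. SNORD38A gave signals of 100, 116 and 120 on the control arrays and 130, 115 and 148 on the Stau1 arrays, and was detected on control array 3 and Stau1 arrays 1 and 3. Its log2 fold change was 0.13, beside 0.11 for its copy SNORD38B.

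Near background, SNORD22 (U22) in an intron of SNHG1, needed for the processing of small-subunit rRNA, gave 100, 121 and 102 on the control arrays and 115, 121 and 137 on the Stau1 arrays. It was detected on control array 2 and on all 3 Stau1 arrays, and arrays 2 of both groups read alike before normalization. The log2 fold change was 0.13 (SE 0.037), with an unadjusted p of 0.015 and an adjusted p of 0.388 by limma. SCARNA9, a scaRNA that guides modification of U2 spliceosomal RNA, was detected on Stau1 arrays 1 and 3 only, with signals of 108 and 126. Stau1 array 2 (104) read like the control arrays (102, 106 and 94.2). SNORD4B was also detected on Stau1 arrays 1 and 3 only, and SNORD100 of RPS12 on control arrays 1 and 3 only. Their levels lay at the detection limit in both groups, so no fold is given for these 3. SCARNA15 was detected on no array.

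Taken singly over the 20 RNAs detected on every array, control array 2 was nearer the mean of control arrays 1 and 3 for 9 and nearer the mean of Stau1 arrays 1 and 3 for 11. Over the 9884 targets detected on every array it was nearer the Stau1 mean for 47.4%. Stau1 array 2 was nearer the control mean for 12 of the 20 (60%), beside 60.2% of the 9884. Stau1 array 2 was nearer the Stau1 mean for SNORA62, SNORA64, SNORD13, SNORD15B, SNORD16, SNORD21, SNORD35A and SNORD68. Nearer did not always mean close, since for SNORD16 it differed from that mean by -0.69. For SNORA64, the RNA with the lowest adjusted p, control array 2 differed from the other controls by -0.03 and from Stau1 arrays 1 and 3 by -0.35 on the log2 scale. For SNORA70 control array 2 lay 0.50 above Stau1 arrays 1 and 3, and Stau1 array 2 lay 0.45 above them. These RNAs thus did not place the arrays numbered 2 with one group.

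The mRNAs of the ribosomal protein hosts were set beside their snoRNAs. Of the 18 hosts 17 were found on the array, and 16 were detected on all 6 arrays. Their median log2 fold change was -0.20 (range -0.60 to 0.32). Of the 17, 13 were below 0, beside 49.9% of all targets detected on all 6 arrays. None passed after adjustment (lowest adjusted p 0.199, limma). Of 15 pairs of such a host and an RNA detected on all 6 arrays, 7 had the same sign. RPS13 had -0.60 where SNORD14A had 0.20, and RPL5 had -0.09 where SNORD21 had -0.63. RPL4 (-0.31) and SNORD16 (-0.63) were both below 0, but Stau1 array 2 was the highest of the 6 for RPL4 and the lowest for SNORD16. RPL10 was detected on no array although its SNORA70 was detected on all 6. Its sign, counted in the hosts and the pairs above, therefore says nothing.

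Genes for the proteins of these particles were measured as mRNAs in the same IPs. The list had 37 genes in 38 targets, of which 32 were detected on all 6 arrays. At an unadjusted p under 0.05 limma called 9 of the 38 lower in the Stau1 IP, beside 5.01% of all targets, and 0 higher, beside 3.85%. Among the 9, RPAP3 was detected on 1 array only. None of the 38 passed limma's test after adjustment (lowest adjusted p 0.264). Of the 32 detected on all 6 arrays 8 were called lower, beside 12.4% of all targets so detected, and 0 higher, beside 9.57%. Of those 32 targets 26 had a log2 fold change below 0, beside 49.9% of all targets so detected, with a median of -0.16. The 5 HEK293T markers had the same sign and a median of -0.16, and 3 of the 4 mitotic markers were below 0. The core proteins of box C/D particles were all below 0: the methyltransferase FBL had -0.09, NOP56 -0.56, NOP58 -0.44 and NHP2L1 -0.16. All 5 targets of box H/ACA core proteins were below 0 as well, with -0.52 for the pseudouridine synthase DKC1 (adjusted p = 0.290 by limma), -0.49 for NOP10, -0.12 for NHP2 and -0.19 and -0.03 for the targets listed as GAR1 and, by its older name, NOLA1. DKC1 gave signals of 11311, 9683 and 11939 on the control arrays and 6703, 8583 and 7673 on the Stau1 arrays, which did not overlap. Among assembly factors NUFIP1 had -0.21 and ZNHIT3 -0.51, neither of which passed adjustment. The 8 Cajal body genes were divided, with 4 below 0 (the lowest GEMIN6 at -0.48) and 4 above (the highest GEMIN4 at 0.18). GEMIN7, among those above, was detected on no array, and SMN1, among those below, on 1. The scaffold COIL had -0.16. The nucleolar protein NCL had -0.48, and RRP9 of the U3 particle had 0.35. The 20 snoRNAs detected on every array had 14 log2 fold changes above 0 (70%, beside 50.1% of the 9884 targets detected on every array), and no test of the difference between the RNAs and these mRNAs was made. Of those above 0, SNORA10, SNORA65, SNORA7B, SNORD15B, SNORD55 and SNORD56 fell below 0 without both arrays numbered 2. The snoRNAs below 0 stayed below 0 there.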

How the data were processed

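RNA of 3 control IPs and 3 Stau1 IPs was labelled and hybridized to Illumina HumanWG-6 v3 arrays. The deposited table gives, per the file headers, each target's mean bead signal (an intensity, not normalized), its detection p-value, bead standard error and bead count. Background was taken from the 200 targets with detection p nearest 0.5 and subtracted, and the transformation and robust spline normalization named in the methods were rebuilt (splines with 10 knots, mgcv 1.9.3, onto control array 2). limma 3.58.1 (lmFit, eBayes) in R 4.3.3 was fitted on all 37879 targets with Benjamini-Hochberg adjustment, without the authors' software. Scripts were tested on simulated data. The number of arrays and of beads limits the precision.

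Named RNAs were those detected on all 6 arrays, those with an unadjusted p under 0.05, the 5 highest and 5 lowest log2 fold changes among RNAs detected on at least 3 arrays, and RNAs of special role. SNORD4B, SNORD32A, SNORD34, SNORD38A, SNORD38B and SNORD100 fall outside that rule, were chosen after their values were seen, and were not followed singly through the other settings. SNORD15A, SNORD25, SNORD26, SNORD36C, SNORD42A, SNORD42B, SCARNA15 and those of the imprinted cluster also fall outside the rule. They were named only for their detection or for the lack of overlap between the groups. Members, gene lists and tests were chosen with earlier results of these data known. Other settings were quantile normalization, a shifted log2, other background corrections, a detection filter, eBayes with trend, a t-test, a replicate block and leaving out arrays.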

Additional observations from a re-analysis of the deposited data

How the results depend on the processing

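No RNA passed after adjustment over all targets in any setting but one: without both arrays numbered 2, 1 did (SNORA64, log2 fold change 0.32, adjusted p = 0.0313, limma), as did 5.33% of all targets there. The count with an unadjusted p under 0.05, 3 by the reported fit, was 5 with quantile normalization (9.06% of all targets), 8 with a shifted log2 (9.1%), 8 for eBayes with trend (8.24%), 5 by the methods' t-test (7.76%) and 13 without both arrays numbered 2 (17.4%), and 3 to 10 when 1 array was left out (6.22% to 14.4%). The arrays' numbers did not pair them (deviations of same-numbered arrays correlated at -0.46, -0.78 and -0.39), and with the replicate block the count was 5 (6.23%). The count past the methods' threshold was 0 to 1 when 1 array was left out (SNORD13 without control array 3). The count of RNAs with no overlap between groups was 30 without both arrays numbered 2 (46.3% of all targets) and 8 to 22 when 1 array was left out (21.8% to 31.8%), which leaves fewer arrays to overlap. The median log2 fold change was 0.097 with a shifted log2, 0.083 over RNAs detected on at least 3 arrays, and 0.0072 to 0.044 when 1 array was left out. Without both arrays numbered 2 the median turned to -0.00080, beside -0.0048 for all targets. At a detection p under 0.01, 21 RNAs were detected on at least 1 array. Leaving out the background subtraction changed no value, since the transformation absorbs a constant.

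Of the 24 RNAs that the naming rule gave 13 kept their sign in every setting, SNORA64, SNORD13, SNORD16, SNORD21, SNORD46, SNORD68 and SNORA70 among them. The size depended on the scale: with a shifted log2 and with neqc the log2 fold change was 1.15 and 1.33 for SNORD13, 1.25 and 0.12 for SNORD46, 0.50 and 0.10 for SNORA64, -0.83 and -0.24 for SNORD21, and -0.94 and -0.17 for SNORD16. SNORD15B turned to -0.00071 with the neqc background correction. Without both arrays numbered 2 the log2 fold change turned to -0.092 for SNORA10, -0.13 for SNORA65, -0.22 for SNORA7B, -0.10 for SNORD15B, -0.31 for SNORD55 and -0.028 for SNORD56. When 1 array was left out it ranged from -0.032 to 0.22 for SNORA10, -0.12 to 0.096 for SNORA62, -0.048 to 0.21 for SNORA65, -0.081 to 0.24 for SNORA7B, -0.00068 to 0.13 for SNORD14B, -0.11 to 0.18 for SNORD15B, -0.16 to 0.00054 for SNORD35B, -0.30 to 0.044 for SNORD36A, -0.016 to 0.24 for SNORD4A, -0.13 to 0.21 for SNORD55 and -0.014 to 0.16 for SNORD56. The cause was not tested. Few beads and signals near background limit what can be said of the dim RNAs.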
